A study of Anser sp. with 4 samples.

Results

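The transcripts described here had their highest signal in goose skin at 5 days after molt. They were chosen by the measured values themselves: on the log2 scale, the level at 5 days had to be at least 1.0 (2-fold) above the highest of the other 3 times. Of 20408 transcript identifiers with a probe well above background on at least 1 array, 130 met this rule, which is 0.637% of those read. For 13 of the 130 the signal at 5 days came from a spot that the scanner program marked as non-uniform, and the other 117 had no such spot. Most results below are therefore given for the 117, with the values for all 130 where the 13 change them.

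The samples were ventral skin of female geese (Anser sp.; the series is about the Wanxi-White goose), and the 4 sampling times were before the molt, then 1.5, 5 and 10 days into the time after it. Total RNA was labelled with Cy3 and put on 1 one-colour array per time. Per the labels the birds moved to pens at 10 weeks of age and ate a maize and soybean diet, and 6 of them were set apart in a pen of their own around molt. Whether a sample is 1 bird or a pool is not stated. The labels give no treatment and no genotype, and time is the only difference they give between groups. With a single array at each time there is no replicate error and no test, and sample and time cannot be told apart.

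A feather grows from a follicle in the skin, an epidermal tube with a dermal papilla at its base. After the old feather is shed or plucked, the epidermal collar above the papilla proliferates and its progeny form the barbs and shaft, which then fill with keratin and die. Signals such as Wnt, BMP, FGF and Hedgehog proteins are known to pass between papilla and collar during this work. The files pair no identifier with a gene symbol, so neither these pathways nor the markers of skin, muscle, blood or pigment cells could be looked up among the members, and the labelled tissue could not be checked against its markers. Members are described by level, time course, detection and probes. In whole skin, fewer cells of a type and less RNA per cell cannot be told apart.

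The array was designed on chicken sequence, with galGal3 named in the file headers, so the probes match chicken transcripts and may bind goose RNA unequally. A level is the log2 processed signal minus the 75th percentile of that array's 43803 non-control spots, so that 0 is the 75th percentile and a level of 1.0 is 2-fold above it. Levels under -3.7 were set to -3.7, called the floor here. The margin is the level at 5 days minus the highest of the other 3 levels. Between 52.4% and 57.5% of spots were well above background on each array and 0 were saturated.

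The largest margins of all belonged to the 13 members with a non-uniform spot. ENSGALT00000034791, read by 1 probe, had a level of 8.61 at 5 days and the floor value of -3.7 at each other time, a margin of 12.31. NM_001006344, also read by 1 probe, had a level of 7.36 at 5 days and again -3.7 at the other 3 times, a margin of 11.06. The array held further probes for both, not well above background on any array, 5 days included. With these averaged in, the margins were 5.09 and 4.54. Only the 5-day array was high for these identifiers, and the spot itself was uneven there. For ENSGALT00000034791 the processed signal at 5 days was 41018 while the median pixel of the spot was 1659.5, and for NM_001006344 they were 17236 and 498. Over the 13 spots the processed signal was 0.80 to 34.6 times the median pixel, against at most 1.38 times over the 160 spots of the other 117 members.

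These 13 members filled the first 9 places by margin and held all 8 of the margins of 16-fold or more (4.0 on the log2 scale). Of the 13 spots, 9 lay within 3 spots of another of them on the array. One of them had a local background of 1153 at 5 days, where the spots of the other 117 members had 35 to 50. None of the 13 was flagged on any of the other arrays. For 10 of the 13 the spot was the only one in use. The other 3 were also read by further probes, and on those alone their margins were -0.41, -1.04 and -1.28, so that without the flagged spot 5 days was not their highest time. On the 5-day array 24 non-control spots carried an outlier flag, against 21, 5 and 3 on the arrays from before molt, 1.5 days and 10 days.

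**Figure D1:**
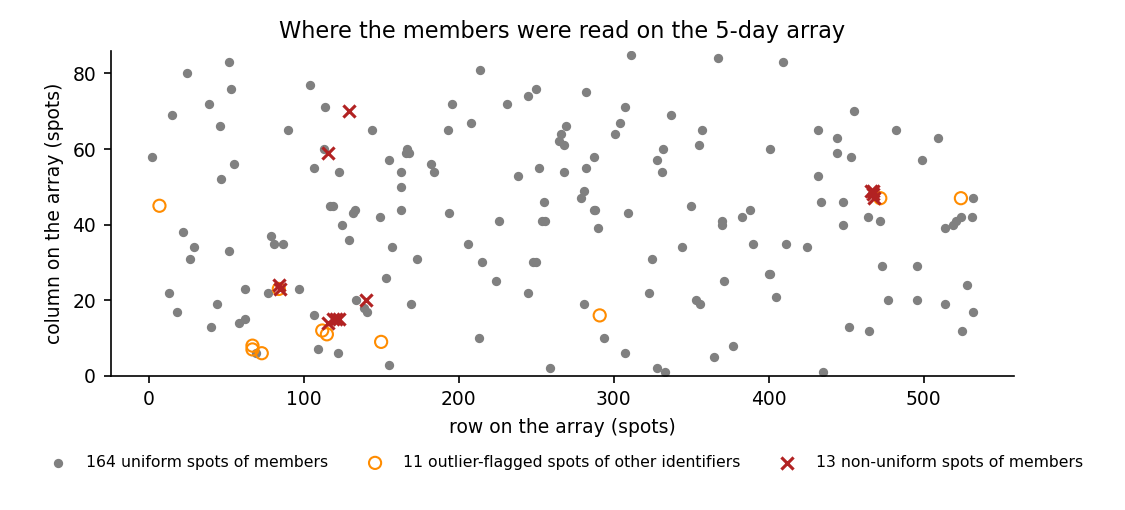
Position of every spot that read a member on the 5-day array, by row and column of the array. Grey dots are uniform spots of members, red crosses the 13 non-uniform spots of members, and orange circles other flagged non-control spots. The red crosses lie in a few tight clusters, 9 of the 13 within 3 spots of another. The grey dots lie in all parts of the array, some of them close together.

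With the 13 set aside, the peak at 5 days was modest in size. The median margin of the 117 was 1.21, which is 2.31-fold, with quartiles of 1.09 and 1.47. The margin reached 3-fold in 20 members and 4-fold in 8, and the highest was 2.59 (6.04-fold). In 29 of the 117, the member with the highest margin among them, all 3 other levels were at the floor, so their margins are lower bounds and the counts and median that include them may be too low. Over all 130 the median was 1.23 and the highest 12.31. The median level of the 117 went from -2.97 before molt to -2.64 at 1.5 days and -0.89 at 5 days, and then to -2.84 at 10 days. The rise and the return are what the rule selects and are no finding in themselves. Of their spots, 2.50% lay within 3 spots of a flagged one, against 2.49% of all spots in use. How close members' spots lay to each other was not tested. The largest margin of the 117 was read at row 168 and the next at row 166, both in column 59. A further member's spot lay between them, at row 167 and column 60. The margin after those was read at row 117 of column 45, and the only passing probe of another member at row 119 there. All these probes were at the floor at the other times.

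**Figure D2:**
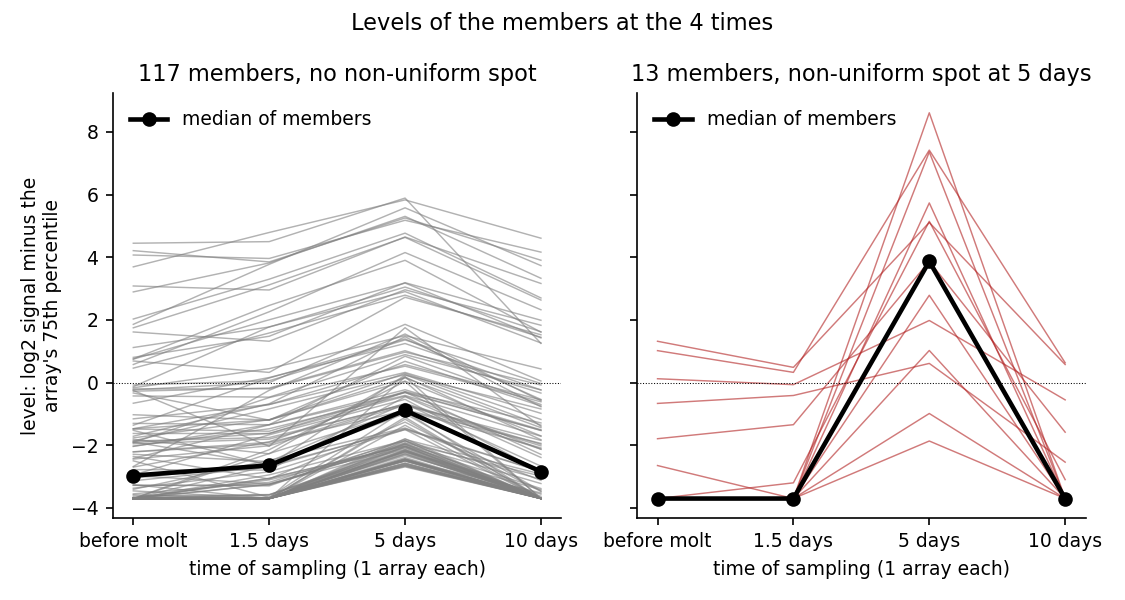
Level of each member at the 4 times (log2 signal minus the array's 75th percentile, 1 array per time), with thin lines for members and a thick black line for their median. The 117 members with uniform spots (left) rise by a median margin of 1.21 at 5 days, and the 13 with a non-uniform spot (right) by a median of 5.21.

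The rule cut through a continuous range of margins. The members nearest to it had margins of 1.001 and 1.003, the nearest identifiers outside it 0.999 and 0.998. Between 1.0 and 1.1 there were 35 members, and 36 identifiers lay between 0.9 and 1.0.

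The technical spread was of the same order as many of these margins. Repeated spots of 1 probe gave a margin SD of 0.12 (25 probes, each on 5 spots and above background on every array, none of them a member's). Different probes of 1 identifier gave a margin SD of 0.54 over 4592 identifiers, 0.38 where the level at 5 days was at or above 0 and 0.67 where it was below. Over the 29 members of the 117 read by more than 1 probe it was 0.70. For the 88 members of the 117 read by 1 probe, the error that the scanner program gives for both signals came to a median of 0.27 for the margin, and 75 of the 88 had a margin above 2 such errors. The rule chose margins of 1.0 or more, so this share describes the members and does not test them. None of these measures holds the difference between birds or RNA preparations.

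Levels of the 117 ran from -2.69 to 5.89 at 5 days, and 42 (35.9%) were above the 75th percentile of the array, where 35.8% of all identifiers read were. By level at 5 days, 38 members were under -2, 37 between -2 and 0, 24 between 0 and 2, and 18 at or above 2. As a share of all identifiers in the same range these were 0.491%, 0.690%, 0.617% and 0.527%. The range under -2 also counts identifiers too close to the floor at 5 days to pass the rule. Its share is lowered by this and cannot be compared with the others, and the 35.8% of all identifiers counts them too. From -2 upward the shares lay between 0.527% and 0.690%, and the difference was not tested. The median margin was between 1.21 and 1.24 in the 4 ranges, though under -2 the floor also limits how large a margin can be. In the dimmest range 22 of the 38 members were at the floor at all other times, against 0 of 42 in the brighter ranges above 0. This contrast is largely set by the levels. A member under -2 must be close to the floor at the other times. One above 0 and at the floor elsewhere would need a larger margin than any of the 117 had.

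**Figure D3:**
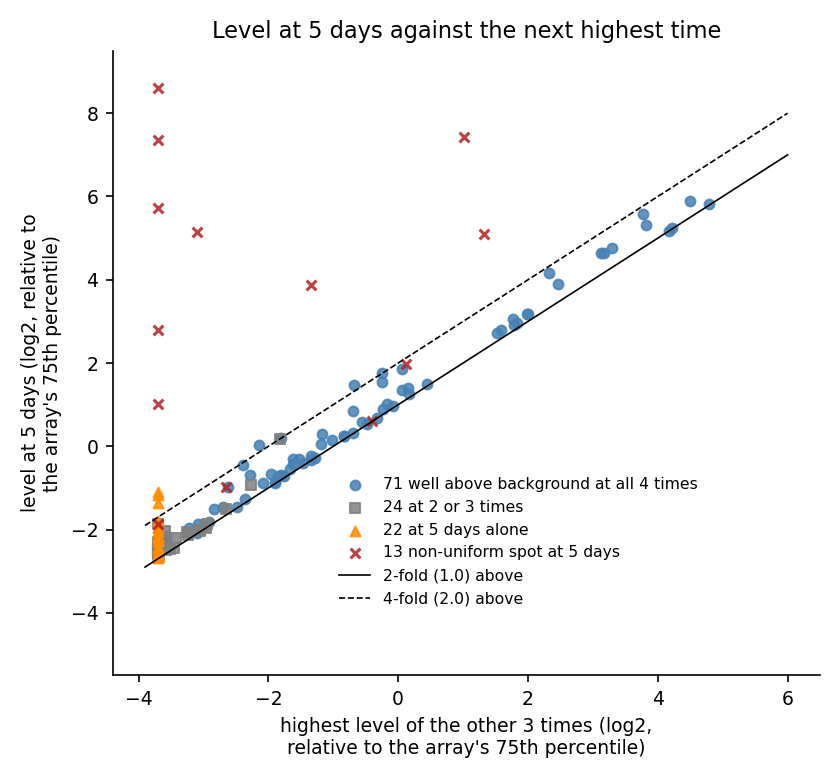
Level at 5 days (vertical) against the highest level of the other 3 times (horizontal) for the 130 members, both log2 relative to the array's 75th percentile. The solid and dashed lines mark margins of 1.0 and 2.0. The 117 with uniform spots lie along the solid line at all levels, with 8 at or above the dashed one, and 9 of the 13 with a non-uniform spot (crosses) lie above the dashed line.

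Detection separates the 117 into those measured throughout and those seen at 5 days alone. At all 4 times 71 of them (60.7%) were well above background, where 77.8% of all identifiers were. A further 24 were detected at 2 or 3 of the times. The remaining 22 (18.8%) were well above background at 5 days alone, each on 1 probe, and over all identifiers 145 (0.711%) were. These 22 entered the comparison only through the time at which they were high, so they had to stand apart, and their count supports nothing. Their levels at 5 days lay between -2.69 and -1.11, with a median of -2.23. Their margins of 1.01 to 2.59 are lower bounds for the probes in use, since the other 3 values are at or near the floor.

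The 3 largest margins of the 117 were of this kind. A predicted RefSeq transcript stood at -3.7 at the other 3 times and at -1.11 at 5 days, at least 6.04-fold higher. A pair of Ensembl transcripts, likewise at the floor elsewhere, stood at -1.17 and -1.36 at 5 days, at least 5.79-fold and 5.06-fold higher. These bounds are for the 1 probe in use. With probes not well above background on any array averaged in, the transcript at -1.36 did not meet the rule. All 3 peak levels were near or below the median level over all identifiers at 5 days, which was -1.12.

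For members read by more than 1 probe the values of single probes can be set side by side. Of the 117, 29 (24.8%) had 2 or more probes in use, 72 probes in all, where 22.6% of all identifiers did. On 66 of the 72 probes 5 days was the highest time, and 40 of the 72 passed the margin of 1.0 singly. Over all 27264 probes in use 21.6% were highest at 5 days and 0.642% passed. The members' probes built the values that chose them, so these shares describe the group and do not test it. Every probe passed singly in 9 of the 29 members, some did in 15, and none did in 5.

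NM_001030541 had the most probes of those in which every probe passed, and it was singled out here after its values were seen. Its level was 0.76 before molt, rose to 2.46 at 1.5 days and 3.90 at 5 days, and was 1.61 at 10 days. The peak was 2.71-fold above the level at 1.5 days, the next highest time. All 4 probes in use followed the same course: they stood at -1.48, 2.16, -0.72 and 3.07 before molt and at 1.93, 5.14, 2.54 and 6.003 at 5 days. Their margins were 1.67, 1.53, 1.24 and 1.33. The margins of these 4 probes thus differed by far less than their levels. The array also held probes for it that were not well above background on any array. With those averaged in, its margin was 0.90 and it did not meet the rule.

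NM_205473 was the brightest of the 9 at 5 days, also singled out after its values were seen. It went from 1.86 before molt to 3.77 at 1.5 days and 5.58 at 5 days, then stood at 3.73 at 10 days, and its peak was 3.49-fold above the next highest time. Its 2 probes gave margins of 1.64 and 1.93. Levels at 1.5 and 10 days were close to each other, and both lay well above that before molt.

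The other 7 members whose probes all passed took several courses. A RefSeq mRNA was at the floor before molt, stood at -2.14 at 1.5 days and 0.04 at 5 days, and was at the floor again at 10 days, with probe margins of 1.57 and 2.79. The next had levels of -1.81, -2.27 and 0.19 up to 5 days and then the floor value, with probe margins of 1.84 and 2.16. These were the only ones of the 9 to combine a margin of 4-fold or more with a level at the floor at 10 days. Both were well above background at all 4 times. The brighter probe of the first stood at -2.45 before molt and -2.63 at 10 days, and that of the second at -2.70 at 10 days. Their dimmer probes were at the floor at 10 days, which drew the averages down.

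Another RefSeq mRNA was level at the other 3 times, at -0.23, -0.0015 and 0.05, and rose to 1.86 at 5 days, with probe margins of 1.80 and 1.82. An Ensembl transcript at -1.71, -0.68 and -0.77 reached 1.46, with probe margins of 1.93 and 2.11. A second Ensembl transcript, brighter throughout at 3.08, 2.96 and 3.16, reached 4.65, with probe margins of 1.03 and 1.50. The last pair were a predicted RefSeq transcript with a margin of 1.35 and a RefSeq mRNA with a margin of 1.20, whose probes gave 1.29 and 1.41, and 1.08 and 1.31. In each of these 5 the 10-day level was within 2-fold of that before molt. In the predicted RefSeq transcript both levels were at the floor, so there the likeness was set by the floor.

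In 5 of the 29 members no single probe passed. One Ensembl transcript had a margin of 1.43, but its 2 probes, each held at the floor, gave 0.07 and 0.01. Its brighter probe stood at -0.87, -0.67, -0.67 and -0.94 over the 4 times, so nearly all of its margin came from the other probe, which lay under the floor at the other times before averaging. A RefSeq mRNA with a margin of 1.30 was of the same kind, with probe margins of 0.36 and -0.12. Holding each probe at the floor before averaging, a setting added after the data were seen, kept 109 of the 117. Among those kept was another RefSeq mRNA of the 5, with a margin of 1.05. Its 3 probes gave 0.87, 0.99 and 0.90, each highest at 5 days and just short of 1.0.

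**Figure D4:**
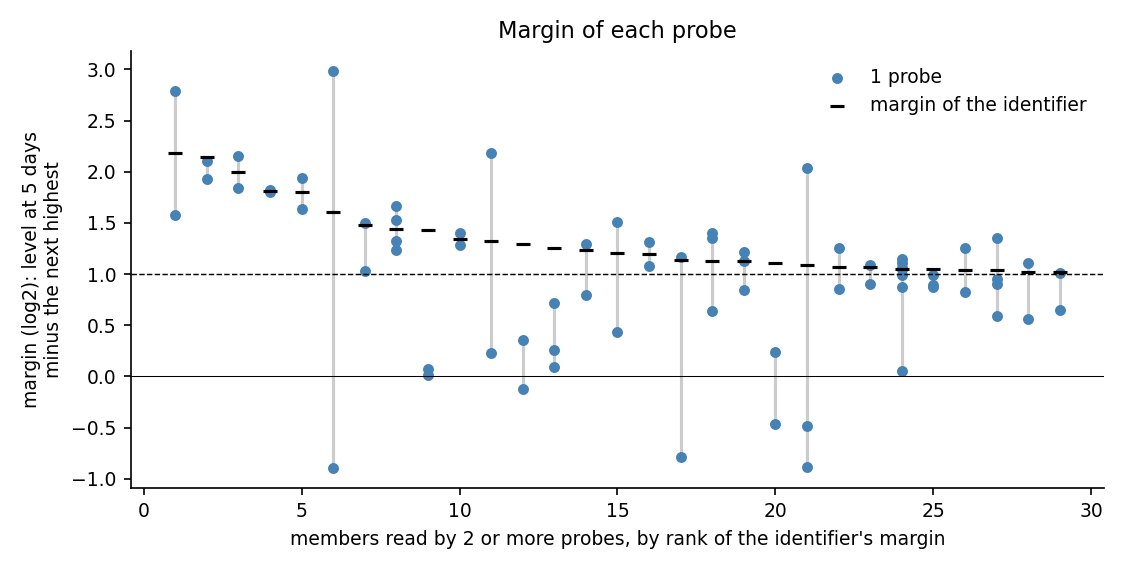
Margin of each probe (blue dots, log2 level at 5 days minus the next highest, each probe held at the floor) for the 29 members with uniform spots and 2 or more probes, ranked by the identifier's own margin (black bars). The dashed line marks 1.0. All probes lie on or above it in 9 members, and 6 of the 72 probes lie below 0.

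A peak could also be read on other probes than those used to choose it, in identifiers chosen anew on part of their probes. For 4578 identifiers with 2 or more unflagged probes, those with a margin of 1.0 on alternate probes were read on their remaining probes. Of 28 chosen on the odd-numbered probes, 19 (67.9%) were also highest at 5 days on the others, and 10 (35.7%) passed 1.0 there, with a median of 0.74. Of 32 chosen on the even-numbered probes, 22 (68.8%) were highest and 10 (31.3%) passed, with a median of 0.43. The 10 that passed are the same identifiers both ways, those past 1.0 on the odd-numbered and the even-numbered probes. The 2 readings are thus not independent. Over all 4578 identifiers 23.4% and 23.3% were highest at 5 days on the probes so read, 0.699% and 0.612% passed, and the medians were -0.24 and -0.24. Both shares were above those of all identifiers, and the margins were smaller than on the probes that chose them. The members' probes were also averaged into the values that chose the members, so this is no separate support for them. Both sets of probes were read on the same arrays, so this says nothing about other birds.

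Before and after the peak, some members had already risen at 1.5 days. The next highest time was 1.5 days in 46 of the 117 members, 10 days in 27 and before molt in 15, and 29 were at the floor at all 3 other times. Against before molt, at 1.5 days 19 of the 117 had a level higher by 2-fold or more and 3 a level lower by as much, where 7.66% of all identifiers were higher and 12.2% lower. At 10 days against before molt 8 were higher and 4 lower, beside 4.15% and 7.31% of all identifiers. At 10 days against 1.5 days 4 were higher and 6 lower, beside 8.60% and 6.58%. The counts over all 130 were 19 and 4, then 8 and 6, then 4 and 7. These comparisons share the arrays that the rule used, so the counts are descriptions. The shares over all identifiers also hold those highest at another time, which could not be members. By a margin of 1.0 or more, 773 identifiers were highest before molt and 99 at 1.5 days. The differences from all identifiers are thus partly set by the rule.

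The early rise was seen in a larger share of the members measured at all 4 times and of the brightest. The difference was not tested, and the shares over all identifiers have the same limit here. It is also partly set by the floor. The 29 members at the floor at all 3 other times could show no rise at 1.5 days, and other members near the floor could show little. Of the 71 detected throughout, 17 (23.9%) were higher by 2-fold or more at 1.5 days and 3 lower, where 8.59% and 11.2% of the 15874 identifiers detected throughout were. Their median difference was 0.37, against 0.06. Of the 18 members with a level of 2 or more at 5 days, 9 were higher and 0 lower, where 7.82% and 5.07% of the 3415 identifiers at such levels were, and their median difference was 1.01, against 0.14. The direction depends on the scale. The spike-in control RNA stood 0.92 ± 0.09 (SD over 6 probes) higher against the goose signal at 1.5 days than before molt, and scaled on it 2 of the 71 were higher and 14 lower, and 0 and 5 of the 18. Relative to all identifiers detected throughout, the members' median stood 0.31 higher with the 75th percentile and 0.35 higher with the spike-ins. Both scalings shift a whole array by 1 value, so this difference could change only through the floor. Its likeness on the 2 scales is therefore no support.

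By course over the other 3 times, 59 of the 117 members (50.4%) were within 2-fold of each other at all 3, where 67.7% of all identifiers were. A further 29 (24.8%) were at the floor at all 3, beside 3.93% of all identifiers. Most of these were well above background at 5 days alone, and could enter only through the time at which they were high. The rest were also well above background at another time. In 14 (11.97%, beside 5.80% of all identifiers) the 1.5-day level was at least 2-fold above that before molt while the 10-day level was not: their median course was -1.54, -0.26, 1.43 and -0.65 in order of time. In 5 (4.27%, beside 1.86%) both the 1.5-day and the 10-day level were raised, with a median course of -0.13, 1.78, 2.90 and 1.27. In 3 (2.56%) only the 10-day level was raised, a share near the 2.28% of all identifiers. The last 7 (5.98%) had some other difference of 2-fold or more, which 18.4% of all identifiers had. That 18.4% includes the identifiers that peaked before molt by the same margin, which the rule bars. Of the 71 detected throughout, 60 (84.5%) were within 2-fold of their level before molt at 10 days, beside 89.3% of all identifiers detected throughout.

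The brightest members show these courses in single values. The brightest, read by 1 probe, had levels of 4.45, 4.50, 5.89 and 1.25 in order of time. Its fall after the peak, 4.64 on the log2 scale, was the largest of the 117 from 5 to 10 days, where a level at the floor counts as -3.7. A RefSeq mRNA read by 4 probes stood at 3.69, 4.79, 5.83 and 4.61 over the 4 times, with a margin of 1.04 and 1 probe of the 4 past 1.0. A stepwise course, up at 1.5 days, highest at 5 and part of the way back at 10, was also that of several bright members read by 1 probe, of which 3 are given as examples. In order of time their levels were 2.03, 3.30, 4.77 and 2.70 in one, 1.75, 3.12, 4.64 and 2.63 in another, and 0.58, 2.26, 4.15 and 2.33 in the last. An opposite course was seen in an Ensembl transcript with a margin of 2.004. It stood at -0.25 before molt, fell to -2.03 at 1.5 days, reached 1.75 at 5 days and was at -1.40 at 10 days.

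The member read by the most probes was an Ensembl transcript with 7, and a margin of 1.05. It stood at -0.16, 0.45, 1.50 and 0.44 over the 4 times. Its probes gave 0.05, 1.15, 1.05, 1.06, 1.11, 0.99 and 0.88. The 6 brighter probes lay close together around the threshold, and the dimmest did not show the peak.

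The kinds of sequence behind the members were mixed. Of the 117, 42 were Ensembl transcripts, 27 RefSeq mRNAs, 6 predicted RefSeq transcripts and 42 carried other kinds of identifier. RefSeq mRNAs made up 23.1% of the 117, beside 18.4% of all identifiers read, and Ensembl transcripts 35.9%, beside 42.6%. Separate identifiers may stand for the same gene, so 117 is not a number of genes.

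By the same rule applied to each time, peaks at 5 days were fewer than those before molt or at 10 days. The rule gave 773 identifiers highest before molt (3.79%), 99 highest at 1.5 days (0.485%) and 186 highest at 10 days (0.911%). Without flagged spots it gave 772, 98 and 185, beside the 117 at 5 days. A spot flagged at the peak time was behind 13 of the 130 peaks at 5 days, 1 peak before molt, 0 at 1.5 days and 1 at 10 days. Unflagged margins went up to 5.29 among peaks before molt, 2.35 among those at 1.5 days and 4.04 among those at 10 days, beside 2.59 at 5 days. Of peaks with 2 or more probes, every probe passed in 9 of 32 at 5 days (28.1%), 13 of 87 before molt, 5 of 21 at 1.5 days and 5 of 29 at 10 days. These differences were not tested. An identifier at least 1.0 below its lowest other time at 5 days was more common than a peak there, with 332 such identifiers. This was not particular to 5 days: there were 184 at 1.5 days and 293 at 10 days, also more than the peaks at those times. Before molt there were 337, fewer than the peaks.

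The 3 comparisons that make up the rule had each their own background. At 5 days 8.00% of all identifiers were at least 2-fold above before molt, 2.76% above 1.5 days and 5.66% above 10 days. The members pass all 3 by construction. Their median differences, for the 117, were 1.62 against before molt, 1.32 against 1.5 days and 1.43 against 10 days.

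The number of members that met the rule again depended on the processing choice changed. All 117 met it under median scaling, the same 113 under quantile normalization and in the authors' deposited log2 values, and 71 with spike-in scaling. The deposited values gave margins close to those under quantile normalization, so these are not separate checks. With probes not well above background on any array averaged in as well, 98 did. Under the normexp correction with its added offset 10 did. Median scaling lifted the 5-day array more than any other, so it could only raise a member's margin. Removing the floor or lowering it can likewise only raise a margin, and leaving flagged spots out did not change the 117. None of these settings could therefore lose a member. In all 14 settings, the rule's own included, 7 of the 117 met the rule, and 26 did in the 13 settings other than normexp. A member without a value in a setting was counted as not meeting the rule. Only 71 of the 117 had a value where every probe had to be well above background on all 4 arrays. These 26 had levels of -1.86 to 5.58 at 5 days and margins of 1.03 to 2.18, and 6 of them were among the 9 members whose probes all passed.

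**Figure D5:**
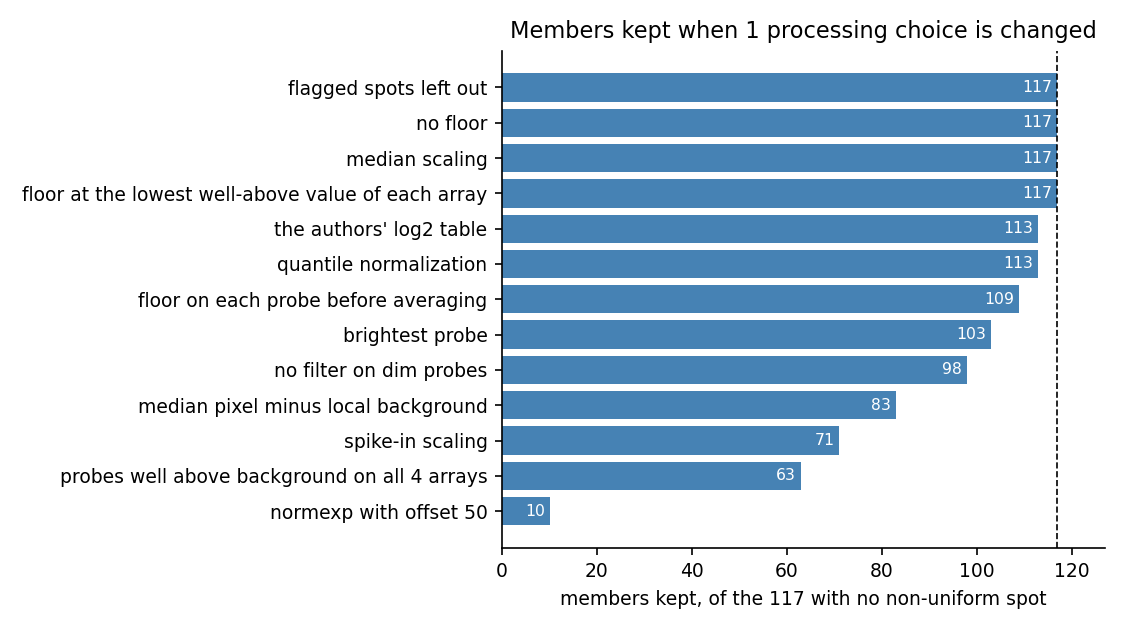
Number of the 117 members with uniform spots that met the rule again when 1 processing choice was changed (bars; the dashed line marks 117). Between 63 and 117 did under every setting but normexp with an offset of 50, under which 10 did; 71 of the 117 could be read where every probe had to be well above background on all 4 arrays.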

How the data were processed

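The authors deposited 1 scanner file per array with the intensity of each spot, made per the file headers by Agilent Feature Extraction 10.7.3.1 (10.7 in the submitters' processing notes), which subtracts background and does not scale one array to another. A deposited table of log2 values has the same median, 3.74, in its 4 columns, and its making is not stated. Its margins were close to those under quantile normalization, for NM_001030541 1.51 under each. Flags and control types (other columns) were read as deposited. Processed signals were divided by the 75th percentile of their array before log2 was taken. Spots were averaged per probe and probes per identifier, leaving out probes not well above background anywhere, and -3.7 was the lowest value kept.

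The members, lists and rules were chosen with earlier results of these data known. The naming rule gave, without gene names, the 2 identifiers with the largest margin. The 17 gene lists and 10 marker lists could not be matched. Alternatives changed the scaling, background correction, filter, floor, flags, probes, source and margin. The files hold no mean spot signal, so normexp (limma 3.58.1, R 4.3.3) used median pixels. The counting was tested on simulated data, with less noise than the spread between probes here and planted peaks above the members' median margin. That checks the code alone and not the members. Python 3.11.15, numpy 2.4.6 and pandas 2.3.3 were used. Precision is limited by having 4 arrays.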

Additional observations from a re-analysis of the deposited data

How the results depend on the processing

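With 1 array per time, neither a replicate nor a slide could be tested, and list counts were not run for want of gene names. No paired analysis was possible because each group has 1 array. The rule gave 130 members, 17 under normexp with an offset of 50, 72 with probes well above background on all 4 arrays, 210 without a floor and 38 at a margin of 1.5, and between 112 and 162 under each other setting. Members at least 2-fold apart between any of the other 3 times numbered 31, 10 under normexp and 57 without a floor. The median margin of the 130 was 0.71 under normexp and 1.15 to 1.32 elsewhere. A fixed offset draws dim ratios toward no change, and how much of the normexp result came from it was not tested. Spike-in scaling gave 115 members, 83 of them among the 130, and the median pixel 120, with 91 shared. For the named identifiers the margin kept its sign in each setting that gave one. Without flagged spots ENSGALT00000034791 and NM_001006344 have no value. Their margins were 7.77 and 5.94 on the median pixel, and 5.09 and 4.54 with no filter. NM_001030541 fell to 0.83 under normexp and 0.90 with no filter. Signal over background limits the 22 members seen at 5 days alone and the 29 at the floor at all other times, whose margins are bounds for the probes in use.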
